A study of Drosophila melanogaster with 40 samples.

Results

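The transfer RNA (tRNA) genes of Drosophila melanogaster were taken as the genes of the dm6 FlyBase annotation whose symbol begins with tRNA: and that lie on nuclear sequences. There were 295 such genes among 18277 annotated nuclear genes (transposable elements left out), of which 290 were annotated as tRNA genes and 5 as pseudogenes. The 22 mitochondrial tRNA genes were kept apart. Chromatin immunoprecipitation followed by sequencing (ChIP-seq) had been performed on embryos labelled 0.5 to 1.5 h old, and 14 of the 40 labelled samples, with a peak list each, were analysed here as 7 groups of 2 replicates. In wild-type embryos (w1118 per the study's methods) antibodies had been used against dPCIF1 (homologous to PCIF1, a cap methyltransferase of mammals), against HIRA, a chaperone of histone H3.3, against the initiating form of RNA polymerase II marked by Ser5P in its C-terminal domain (Pol II-Ser5P), and against the pioneer factors GAGA factor (GAF) and Zelda (ZLD). GAF and ZLD lists were also made from M-Z+ dPCIF1 mutant embryos, that is, without maternal and with zygotic function of the gene; the labels do not give the allele. Each replicate was whole, hand-selected embryos, so a peak is an average over all nuclei and their stages. A peak list says where the signal passed a threshold and not how high it was, and sequencing depth is unknown. The lists carry no expression values, so the labelled tissue and the loss of dPCIF1 could not be checked against markers.

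tRNA genes are transcribed by RNA polymerase III (Pol III) and not by RNA polymerase II. Their promoter lies inside the gene: the factor TFIIIC binds a pair of short internal elements, the A box and the B box, and places TFIIIB upstream of the start, which in turn recruits Pol III. The same sequence is usually present in many copies, and copies are often grouped in clusters or lie within introns of protein-coding genes. HIRA deposits the histone variant H3.3 outside of replication at sites of nucleosome loss, GAF binds GA-rich sequence and ZLD binds the CAGGTA family of sites.

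The genes were short, with a median length of 73 bp (71 to 186 bp), and 16 held an intron. An A box was found in 271 of 295 genes and a B box (GTTCNANNC, sense strand) in 274, with both in 252. For comparison, 5.72% of all windows of 73 bp in the chromosome arms held an A box on either strand and 2.08% a B box. The sequences of 4 genes called in many lists and of 4 genes called in none are shown because they carry the same 2 internal elements at nearly the same places. They were read from the RefSeq dm6 genome on the sense strand, 5′ to 3′, with the A box and then the B box in capitals.
tRNA:Lys-TTT-2-1 (12 lists): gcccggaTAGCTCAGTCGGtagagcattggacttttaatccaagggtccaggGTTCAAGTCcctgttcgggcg
tRNA:Asp-GTC-2-1 (11 lists): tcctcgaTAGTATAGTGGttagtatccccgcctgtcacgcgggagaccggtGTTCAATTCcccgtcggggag
tRNA:Asp-GTC-1-1 (10 lists): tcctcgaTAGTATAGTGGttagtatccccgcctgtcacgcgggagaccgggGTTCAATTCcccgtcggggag
tRNA:Lys-TTT-1-1 (9 lists): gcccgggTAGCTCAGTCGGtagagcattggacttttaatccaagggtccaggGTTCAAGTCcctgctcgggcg
tRNA:Arg-TCT-2-1 (0 lists): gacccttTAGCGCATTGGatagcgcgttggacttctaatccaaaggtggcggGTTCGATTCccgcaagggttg
tRNA:Arg-TCT-3-1 (0 lists): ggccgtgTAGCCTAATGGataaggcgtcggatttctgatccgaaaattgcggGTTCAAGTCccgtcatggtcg
tRNA:Gln-CTG-4-1 (0 lists): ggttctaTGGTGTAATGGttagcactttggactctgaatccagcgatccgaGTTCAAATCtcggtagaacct
tRNA:Gly-GCC-2-1 (0 lists): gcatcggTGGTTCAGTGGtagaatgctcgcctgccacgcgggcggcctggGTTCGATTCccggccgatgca
In all 8 the A box began at base 8, and the B box at base 51, 52 or 53, counted from 1 at the 5′ end. The A and B boxes were present together in 52 of the 58 genes with a HIRA peak in both lists (89.7%) and in 99 of the 116 genes with a peak in no list (85.3%), beside 85.4% of all 295 genes. Called and uncalled genes thus held these elements at close shares.

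Genes of identical sequence did not all have the same calls. The 5 genes of the family tRNA:Lys-TTT-2 share every base of the sequence printed for tRNA:Lys-TTT-2-1. These copies were looked at after their values were seen. The 4 copies grouped on 3R (tRNA:Lys-TTT-2-1 to tRNA:Lys-TTT-2-4) had a peak within 500 bp in 12, 7, 6 and 6 lists, and tRNA:Lys-TTT-2-5, alone elsewhere on 3R, had a peak in 0 lists. The grouped copies have the 2 7SL RNA genes among them, 164 bp from tRNA:Lys-TTT-2-1 and from tRNA:Lys-TTT-2-4, and their part in these calls was not tested. The 12 identical genes of tRNA:Asp-GTC-1 ranged from 0 to 10 lists with 5 of them in none, and tRNA:Asp-GTC-2-1 differs from them by the single substitution T51G (the base of tRNA:Asp-GTC-2-1 first). tRNA:Lys-TTT-2-1 differs from tRNA:Lys-TTT-1-1 by A7G and T66C. Over the 24 families of 5 or more identical genes, which hold 180 genes, 23 contained both a gene called in no list and a gene called in at least 1. As 116 of all 295 genes (39.3%) were called in no list, most groups of this size would hold both kinds. The count is therefore only a description. The remaining family was the initiator family tRNA:iMet-CAT-1, whose 5 genes were each called in 3 to 5 lists. Reads had been kept only where they mapped to a single position. There were 100 distinct sequences among the 295 genes and 57 genes with no identical copy, but with 100 bp added to either side all 295 were unique in the genome.

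The shares of tRNA genes with a peak differed widely between proteins. A gene was counted as called in a list when a peak lay within 500 bp of it, and the background was the share of all positions of the 5 large arms (windows of 73 bp) that lay as near to a peak of the same list, computed over every position. HIRA was near 102 and 68 tRNA genes in its 2 lists (34.6% and 23.1%), beside 5.40% and 4.17% of positions. Pol II-Ser5P was near 116 and 113 genes (39.3% and 38.3%), beside 18.2% and 18.1% of positions. GAF was near 67 and 63 genes (22.7% and 21.4%), beside 9.76% and 10% of positions. These 3 proteins were above the background in both of their lists.

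For the other proteins the shares were close to the background. ZLD was near 18 and 21 genes (6.10% and 7.12%), beside 5.87% and 4.77% of positions. dPCIF1 was near 24 and 12 genes (8.14% and 4.07%), beside 5.16% and 4.39% of positions, so that its second list lay below and its first above. The number of peaks per list ran from 3547 to 11661, and the HIRA lists (4593 and 3547 peaks) were among the shorter ones.

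Relative to positions, with each arm weighted by its number of tRNA genes, HIRA stood at 6.21-fold and 5.37-fold, a mean of 5.79 ± 0.599 (SD, n = 2). GAF stood at 2.18 ± 0.129 and Pol II-Ser5P at 2.02 ± 0.0322 (SD, n = 2 each). These did not overlap, with 2.09 to 2.27 for GAF and 1.99 to 2.04 for Pol II-Ser5P. The ranges did overlap when the peak had to overlap the gene (2.55 to 2.64 and 2.59 to 2.69). They also overlapped with peaks of at least 500 bp (1.59 to 2.21 and 1.94 to 2.05). For genes over 1 kb from a protein-coding start, still set against all positions and not those of the same kind, they overlapped too (1.92 to 2.10 and 1.84 to 2.00). Within 1000 bp they stayed apart (1.96 to 1.99 and 1.78 to 1.90), as with each cluster counted once. ZLD stood at 1.23 ± 0.319 and dPCIF1 at 1.19 ± 0.433, which overlapped each other. Every list other than HIRA lay between 0.883 and 2.27. An exact permutation test over all 945 ways to put the 10 wild-type lists into 5 pairs asked whether lists of the same protein were closer to each other than other pairings. The labelled pairing held 95.5% of the variation of the percentages between proteins (p = 0.00423) and 93.8% of that of the log2 ratios (p = 0.0190), with Benjamini-Hochberg adjusted p = 0.00847 and 0.0190 over these 2 exact tests (the smallest p possible is 0.00106). Neighbouring genes share peaks, and when each cluster counted once, against windows of the clusters' own spans, the HIRA ratio was 2.92 and 3.20, that of Pol II-Ser5P 1.61 and 1.65, and that of GAF 1.87 and 1.91.

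**Figure D1:**
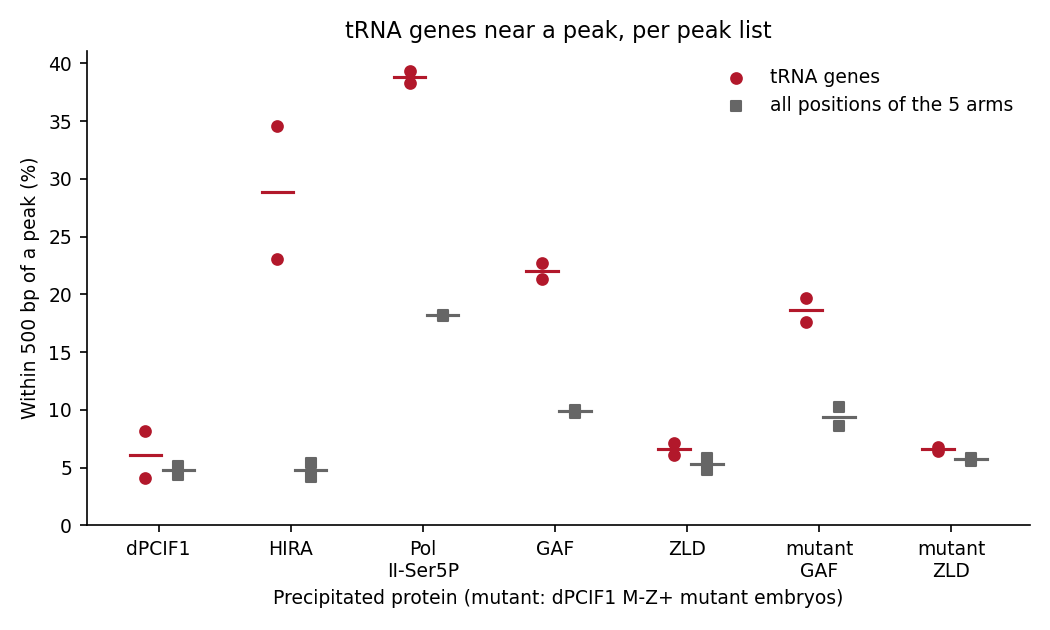
Percent of the 295 tRNA genes (circles) and of all positions of the 5 large chromosome arms (squares) within 500 bp of a peak, for each of the 2 peak lists of a group, with bars at the group means. HIRA lay at 34.6% and 23.1% against 5.40% and 4.17% of positions, while ZLD lay at 6.10% and 7.12% against 5.87% and 4.77%.

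For HIRA, Pol II-Ser5P and GAF, peak coverage was highest at the genes. HIRA peaks covered the 5′ end of 21.4% and 15.3% of the tRNA genes in the 2 lists and 2.37% and 2.71% of the points 3 kb to either side, where 2.06% and 1.58% of the arms was covered in all. Pol II-Ser5P peaks covered the 5′ end of 28.8% and 29.8% of the genes and 10.8% and 10.2% at 3 kb, near the 10.3% and 10.4% of the arms they covered. The HIRA coverage was highest within 50 bp of the 5′ end in both lists. GAF covered 15.6% and 14.6% of the 5′ ends and still 9.83% and 10.7% at 3 kb, above the 5.43% and 5.49% of the arms. Its coverage was also highest within 50 bp of the 5′ end in both lists (15.6% and 15.3%), but was still raised at 3 kb. ZLD covered 1.36% of the 5′ ends in both wild-type lists, against 2.71% and 2.203% at 3 kb, and 1.02% and 0.678% in the mutant lists, against 3.56% and 2.88%. In all 4 ZLD lists the coverage at the tRNA gene was lower than 3 kb away, while the highest coverage lay 950 to 1650 bp off.

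**Figure D2:**
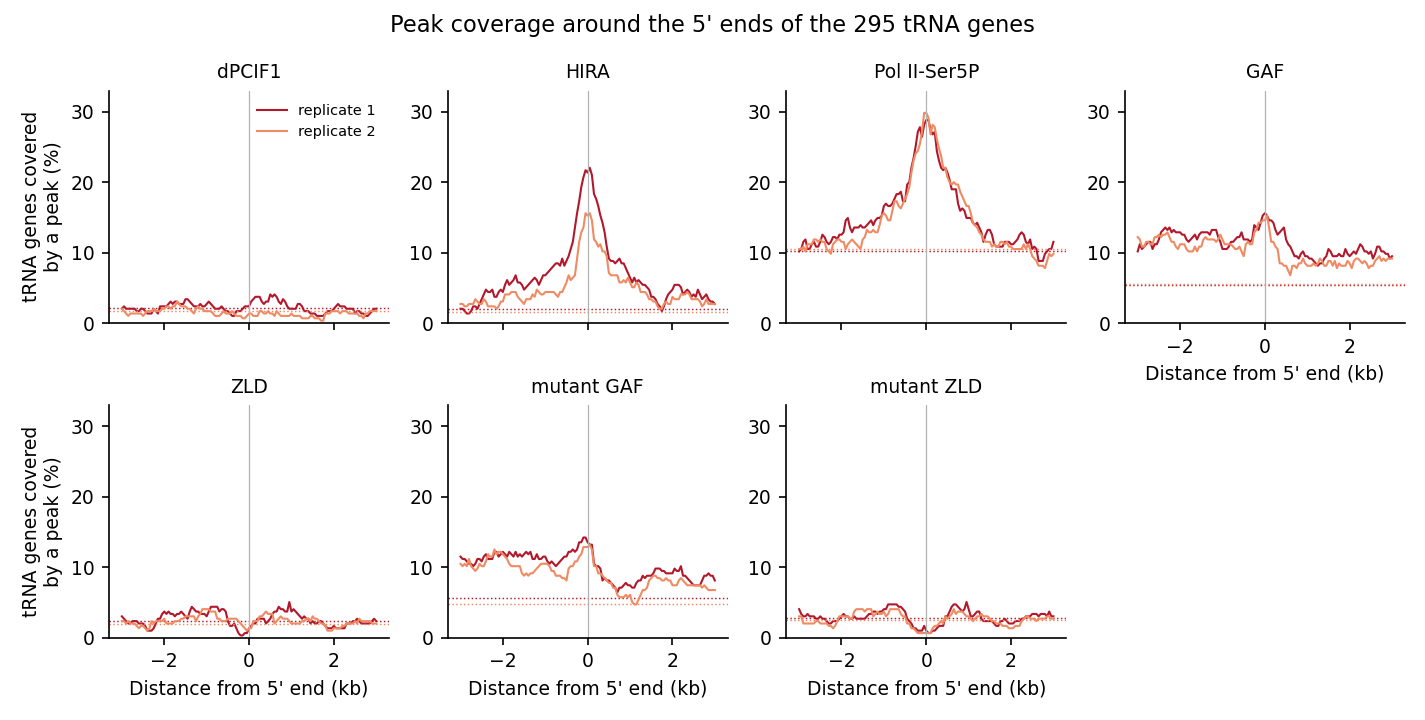
Percent of the 295 tRNA genes whose position at a given distance from the gene's 5′ end (kb, in the direction of transcription) is covered by a peak, for both replicates of each group, with dotted lines at the percent of the 5 arms covered by that list. HIRA and Pol II-Ser5P form narrow maxima at the gene (22.0% and 29.8% at the highest), whereas ZLD dips there.

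The tRNA genes were then separated by whether the start site of a protein-coding gene lay within 1 kb. There were 81 such genes, and 214 lay further away. Away from protein-coding starts HIRA was near 79 and 54 of the 214 genes (36.9% and 25.2%), which was 10.8-fold and 10.5-fold the share of positions of the same kind. Near protein-coding starts HIRA was near 23 and 14 of the 81 genes (28.4% and 17.3%), 2.08-fold and 1.51-fold the share of such positions. The HIRA share near protein-coding starts minus that away from them was -8.52 and -7.95 percentage points in the 2 lists.

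In percent, Pol II-Ser5P, GAF and dPCIF1 were called more often near protein-coding starts than away from them. ZLD, like HIRA, was called less often near them. Pol II-Ser5P was near 34 and 38 genes by protein-coding starts (42.0% and 46.9%), 0.958-fold and 1.07-fold of positions, and near 82 and 75 genes away from them (38.3% and 35.05%), 3.03-fold and 2.79-fold of positions. GAF stood at 1.28-fold and 1.197-fold near starts and at 3.01-fold and 2.75-fold away. dPCIF1 was near 10 and 7 of the 81 genes and 14 and 5 of the 214. These were 0.719-fold and 0.577-fold of positions near starts, and 2.79-fold and 1.24-fold away. ZLD was near 2 and 4 of the 81 genes and 16 and 17 of the 214. For ZLD this was 0.276-fold and 0.619-fold near starts and 1.41-fold and 1.95-fold away. In every list the ratio to positions of the same kind was higher away from protein-coding starts than near them.

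**Figure D3:**
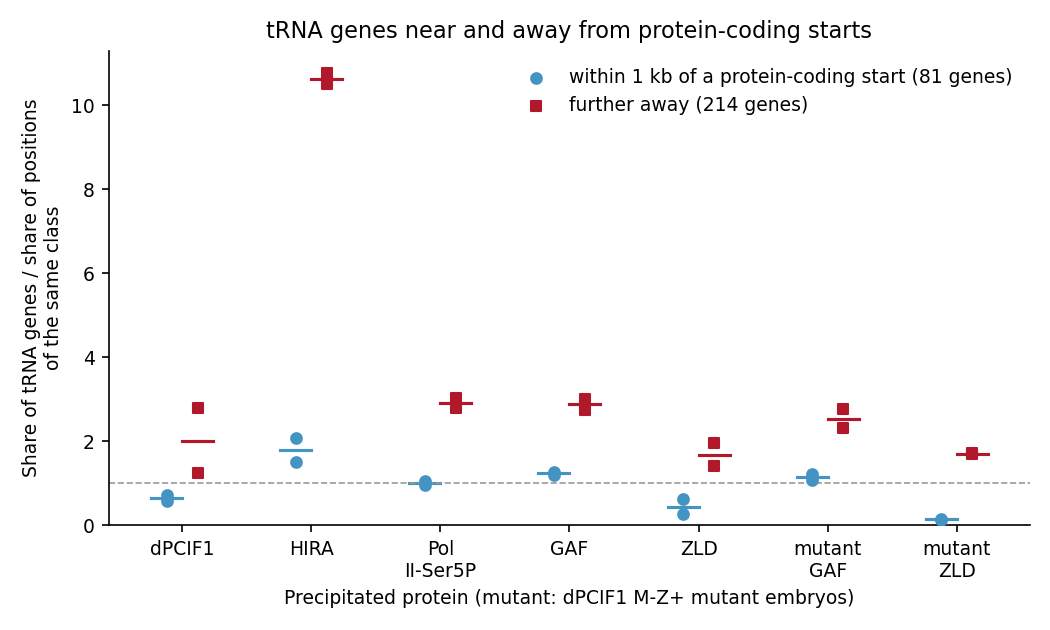
Share of tRNA genes within 500 bp of a peak divided by the share of genome positions of the same class, for tRNA genes within 1 kb of a protein-coding start (circles, 81 genes) and further away (squares, 214 genes), per peak list, with bars at group means and a dashed line at 1. HIRA away from starts lies at 10.8 and 10.5, and Pol II-Ser5P near starts at 0.958 and 1.07.

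Genes called in both lists of a group gave a stricter set. These were 58 genes for HIRA (19.7%; 3.22% of positions), 102 for Pol II-Ser5P (34.6%; 15.7% of positions) and 51 for GAF (17.3%; 8.64% of positions). They were 10 genes for dPCIF1 (3.39%; 3.41% of positions) and 10 for ZLD (3.39%; 3.64% of positions). In the mutant they were 43 for GAF (14.6%; 8.11% of positions) and 14 for ZLD (4.75%; 4.63% of positions). The dPCIF1 and ZLD shares were thus at the background. Of the genes called in either list, 51.8% were called in both for HIRA and 80.3% for Pol II-Ser5P.

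HIRA and Pol II-Ser5P were often near the same tRNA genes. Of the 58 HIRA genes, 42 had Pol II-Ser5P in both lists (72.4% of the HIRA genes and 41.2% of the 102 Pol II-Ser5P genes), and 35 of these 42 lay away from protein-coding starts. For 13 of the 58 HIRA genes neither Pol II-Ser5P list had a peak, and 29 of the 102 Pol II-Ser5P genes had HIRA in neither list. Of all 295 tRNA genes, 127 had Pol II-Ser5P and 112 had HIRA in at least 1 list. GAF shared 12 genes with HIRA (20.7% of the HIRA genes and 23.5% of the 51 GAF genes) and 29 with Pol II-Ser5P (56.9% of the GAF genes and 28.4% of the Pol II-Ser5P genes). Over all 295 tRNA genes the shares called in both lists were 17.3% for GAF, 19.7% for HIRA and 34.6% for Pol II-Ser5P. The shares of the GAF and HIRA overlap were thus close to those over all tRNA genes. All 10 dPCIF1 genes had Pol II-Ser5P in both lists and 5 of the 10 had HIRA, while 46 of the 58 HIRA genes had dPCIF1 in neither list. Only 26 of all 295 tRNA genes had dPCIF1 in at least 1 list, so its absence was not particular to the HIRA genes. For 8 of the 58 HIRA genes none of the other 12 lists had a peak. The lists share embryos of the same stage and, for GAF and ZLD, the same input, so these shared counts are a description.

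Nearly all tRNA genes with HIRA in both lists had other tRNA genes close by. Chained at 5 kb or less between neighbours, the 295 genes formed 69 clusters of 2 or more genes (218 genes) and 77 single genes. Of the 58 genes with HIRA in both lists 57 lay in clusters (98.3%), beside 73.9% of all tRNA genes and 83.3% of the 102 Pol II-Ser5P genes. In the single lists HIRA was near 45.4% and 29.8% of clustered genes and 3.90% of single genes in each, beside 5.40% and 4.17% of positions. Single tRNA genes were thus not above the positions for HIRA. Pol II-Ser5P was near 45.4% and 43.1% of clustered and 22.1% and 24.7% of single genes, beside 18.2% and 18.1% of positions. Clusters with HIRA near at least 1 member in both lists numbered 19 of 69 (27.5%), in 13 of them at every member, and 1 of 77 single genes was called. Pol II-Ser5P was near 31 clusters (44.9%) and 17 single genes (22.1%), GAF near 18 clusters and 10 single genes. dPCIF1 was near 5 clusters and ZLD near 7. A gene within a cluster also counts the peaks of its neighbours within 500 bp, and the part of this in the difference was not tested.

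**Figure D4:**
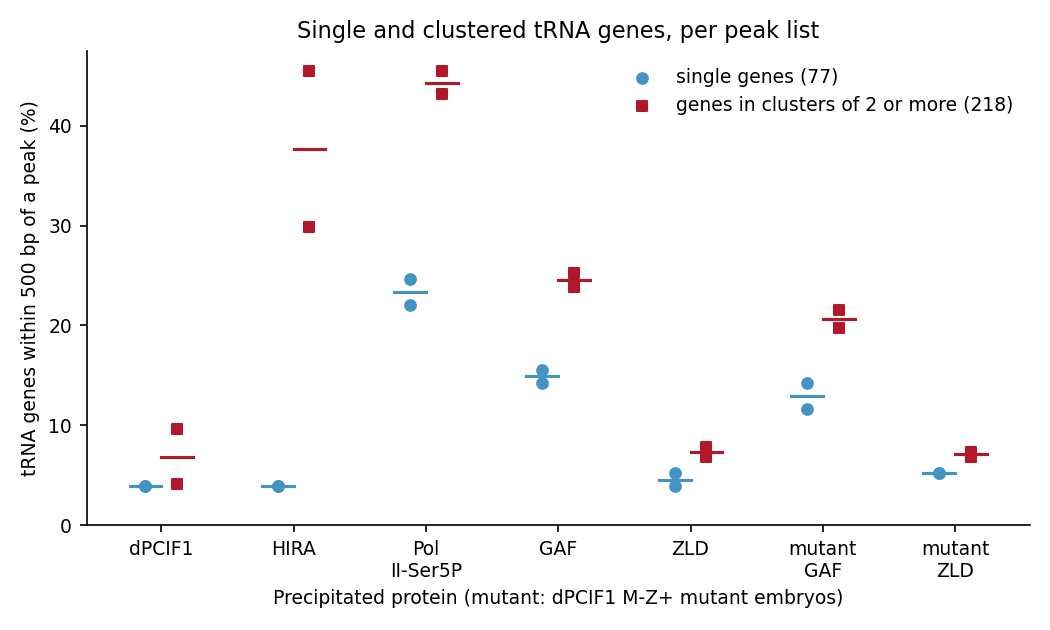
Percent of single tRNA genes (circles, 77 genes) and of tRNA genes in clusters of 2 or more (squares, 218 genes) within 500 bp of a peak, per peak list, with bars at group means. HIRA lies at 3.90% of single genes in both lists and at 45.4% and 29.8% of clustered genes.

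The 11 clusters of 5 or more genes differed in which proteins they carried. At the cluster of 6 genes on 3L (4 tRNA:Cys and 2 tRNA:Lys genes, dm6 3L from 3095737 to 3097590, inside the chitinase gene Cht7), HIRA was near 5 and 6 genes and Pol II-Ser5P near all 6 in both lists, and the other 10 lists had none. At the 8 genes on 2R (6 tRNA:Glu and 2 tRNA:iMet genes, 2R from 19725620 to 19729353), Pol II-Ser5P was near all 8 in both lists, HIRA near 5 and 4, and GAF near none. At the 6 tRNA:Leu genes by Sarm, 3 of them inside it (3L from 8060214 to 8068290) Pol II-Ser5P was near 5 in each list and HIRA near 5 and 2. These clusters carried HIRA and Pol II-Ser5P without GAF.

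Other clusters had HIRA without Pol II-Ser5P. On the X chromosome (X from 14014814 to 14017284) a cluster of 5 tRNA:Arg and 2 tRNA:Ser genes had HIRA near 7 genes in the first list and 3 in the second, with no gene near a peak in the other 12 lists. The 11 genes on 3R (4 tRNA:Ala, 3 tRNA:Pro, 2 tRNA:Thr and 2 tRNA:Val genes, 3R from 17617761 to 17631750) had HIRA near 3 and 5 genes and no Pol II-Ser5P, and 9 of them lay within 1 kb of a protein-coding start. At a pair of clusters GAF was near several genes in both lists. The 11 genes at the ecdysone receptor gene EcR, 8 of them inside it (3 tRNA:Arg, 3 tRNA:Asn, 1 tRNA:Ile and 4 tRNA:Lys genes, 2R from 6161535 to 6171759) had GAF near 10 and 8 genes, HIRA near 8 and 7, and Pol II-Ser5P near 7 and 2. The 5 tRNA:Gln genes at CG4238 (2L from 2009155 to 2013250) had GAF near 3 and 5 genes and HIRA near 4 genes in the first list and 0 in the second.

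At 4 further clusters calls differed between the lists of a protein. At the 7 genes by ATP8A (5 tRNA:Ile and 2 tRNA:Leu genes, 2R from 13430282 to 13432794), Pol II-Ser5P was near 7 and 6 genes and HIRA near 6 and 0. At the 5 tRNA:His genes (2R from 12333926 to 12336804), Pol II-Ser5P was near 1 and 3 genes and HIRA near 1 and 0. At the 6 tRNA:Glu genes inside Ptp61F (3L from 1397695 to 1401852), HIRA and Pol II-Ser5P were each near 2 genes in the first list and 0 in the second. The 6 genes on 3R from 8139533 to 8141042 (5 tRNA:Arg and 1 tRNA:Asn) were near no peak but for 3 genes in the first GAF list. At 4 of the 11 clusters (those of tRNA:Gln at CG4238, of tRNA:His, by ATP8A and inside Ptp61F) the HIRA calls came from the first list alone.

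**Figure D5:**
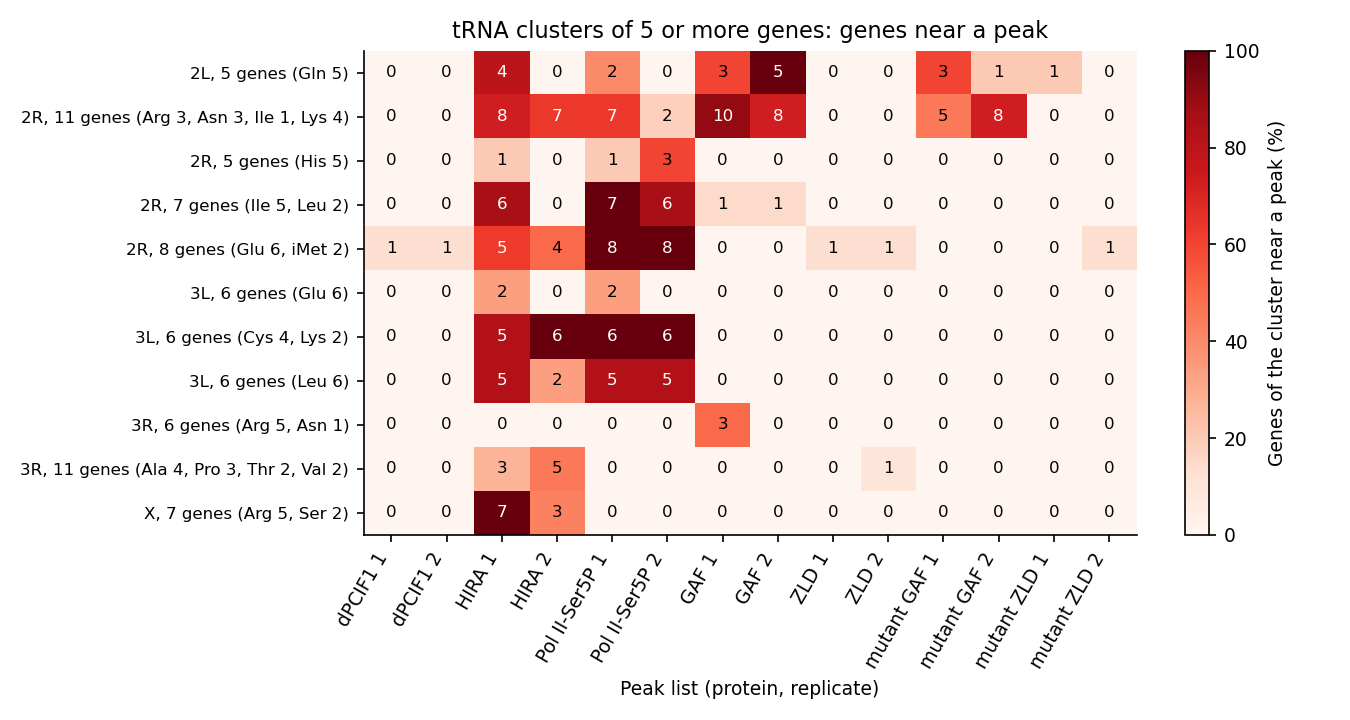
Number of tRNA genes within 500 bp of a peak (printed) and their percent of the cluster (color) for the 11 clusters of 5 or more genes, in rows by chromosome arm, size and isotypes, and the 14 peak lists in columns. The cluster of tRNA:Cys and tRNA:Lys genes on 3L has 5 or 6 of 6 genes called in the HIRA and Pol II-Ser5P lists and 0 elsewhere, and the X cluster has calls for HIRA alone.

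Calls differed in number between isotypes and arms, and genes of 1 cluster share peaks. Over all 295 genes, the shares called in both lists were 19.7% for HIRA, 34.6% for Pol II-Ser5P and 17.3% for GAF. For HIRA, isotypes from both ends of the range are given. HIRA was called in both lists at 8 of 10 tRNA:Asn genes, 10 of 19 tRNA:Lys, 10 of 20 tRNA:Ser, 3 of 7 tRNA:Cys and 7 of 17 tRNA:Ala genes. The 10 tRNA:Asn genes formed only 5 clusters or single genes. HIRA was called at 0 of 18 tRNA:Thr, 0 of 15 tRNA:Val, 0 of 12 tRNA:Ile and 0 of 12 tRNA:Gln genes. Pol II-Ser5P was called at 7 of the 12 tRNA:Ile and 6 of the 18 tRNA:Thr genes, where GAF was called at 4 and 7. For tRNA:Thr the Pol II-Ser5P share (33.3%) was close to that over all genes. GAF was called at 5 of 12 tRNA:Gln genes. By arm, HIRA was called at 32 of 100 genes on 2R (3.43% of positions of that arm), 7 of 49 on 3L (3.16%), 11 of 79 on 3R (3.35%), 5 of 26 on X (2.53%) and 3 of 41 on 2L (3.57%). Pol II-Ser5P was called at 55 of the 100 genes on 2R (18.6% of positions), 17 of the 49 on 3L (15.5%), 20 of the 79 on 3R (16.9%), 9 of the 41 on 2L (17.3%) and 1 of the 26 on X (9.40%). Genes with an identical copy were called more often for HIRA (37.0% and 26.1% of 238) than the 57 genes without (24.6% and 10.5%). For Pol II-Ser5P these values were 39.5% in both lists and 38.6% and 33.3%.

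Position relative to protein-coding genes also varied. Of the 295 genes, 137 (46.4%) lay inside a protein-coding gene. GAF was near 28.5% and 27.0% of these and 17.7% and 16.5% of the others, whereas HIRA was near 31.4% and 21.2% of these and 37.3% and 24.7% of the others. ZLD was near 2.19% and 5.84% of the genes inside a protein-coding gene and 9.49% and 8.23% of the others. Positions inside protein-coding genes were near a peak in 5.18% and 4.07% for HIRA, 10.5% and 10.7% for GAF and 5.00% and 4.07% for ZLD, and positions outside in 5.84% and 4.38%, 8.34% and 8.60%, and 7.61% and 6.17%. The differences between tRNA genes inside and outside were not tested.

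No tRNA gene had a peak in all 14 lists, and 116 (39.3%) had none in any list. The share of all positions in every list or in none was not computed, so these counts are only a description. The most lists were reached by 2 genes with 12 each. tRNA:Lys-TTT-2-1 (3R from 6819894 to 6819966), 28058 bp from the nearest protein-coding start, that of the homeotic gene Dfd, was overlapped by a HIRA peak in both lists, lay 130 and 370 bp from Pol II-Ser5P peaks and within 500 bp of a peak in every GAF and ZLD list, and had no dPCIF1 peak within 500 bp (1666 and 1365 bp away). tRNA:Leu-AAG-1-3 (2R from 17145300 to 17145381) was overlapped by HIRA and Pol II-Ser5P peaks in both lists and had dPCIF1 at 0 and 135 bp, while GAF lay 287 bp away in the second wild-type list and 47060 bp away in the first. The 7SL RNA gene 7SLRNA:CR42652, itself called in 10 lists, lies 164 bp from tRNA:Lys-TTT-2-1, and peaks within 500 bp of both cannot be assigned to either. The first of these genes was thus missing dPCIF1 and the second GAF in part of the lists.

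Genes called in 11 lists were tRNA:Asp-GTC-2-1 (inside the BMP type I receptor gene tkv on 2L), tRNA:Thr-TGT-2-2 and tRNA:Ala-TGC-2-1 (both on 2R). tRNA:Asp-GTC-1-1, which also lies in tkv, tRNA:Leu-AAG-1-2 and tRNA:Pro-CGG-2-3 were called in 10. Among the genes called in 9 were tRNA:Lys-TTT-1-1, inside the kinase gene Btk, and tRNA:Glu-TTC-1-5, and among those called in 8, in a tie, tRNA:Asn-GTT-1-7 inside Ptr. tRNA:Pro-CGG-2-3 lay 447 bp from the start of the protein-coding gene CG4174, and of these 11 genes it alone had no HIRA peak within 500 bp in either list (2706 and 2652 bp away).

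The dPCIF1 mutant addressed whether the pioneer factors' peaks at tRNA genes changed without maternal dPCIF1. GAF was near 58 and 52 tRNA genes in the mutant (19.7% and 17.6%), beside 10.2% and 8.60% of positions, and near 67 and 63 in wild type. The difference was -3.39 percentage points (exact two-sided permutation p = 0.333, the smallest that 2 lists against 2 can give). Neither mutant list reached the lower of the wild-type lists. This was not particular to tRNA genes. At the 5′ ends of 13968 protein-coding genes GAF was near 2829 and 2500 in the mutant and 2894 and 2961 in wild type. For the tRNA genes the ratio to positions was 1.97 ± 0.0929 in the mutant and 2.18 ± 0.129 in wild type (SD, n = 2 each). These ratios also did not overlap (exact permutation p = 0.333 for the log2 ratio, -0.15). The GAF difference turned to 0.508 when peaks narrower than 500 bp were left out (exact permutation p = 1).

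ZLD was near 20 and 19 tRNA genes in the mutant (6.78% and 6.44%), beside 5.87% and 5.58% of positions, and near 18 and 21 in wild type, a difference of 0 (exact permutation p = 1). Both designs are too small to pass a threshold of 0.05, so a change of this size cannot be told from replicate spread.

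Gene by gene, few tRNA genes changed class. A GAF peak was kept in all 4 lists at 35 genes (11.9%), beside 14.7% of the 5′ ends of all 18277 nuclear genes. It was lost, meaning present in both wild-type lists and in neither mutant list, at 3 genes (1.02%), beside 1.64% of all genes. It was gained at 1 gene (0.339%), beside 0.602%. The lost genes were tRNA:Pro-AGG-1-1, overlapped by a peak in both wild-type lists and 1160 and 1583 bp from the nearest in the mutant, tRNA:Ile-AAT-1-3 in the ATP8A cluster and tRNA:Val-CAC-2-5. The gained gene was tRNA:Gly-TCC-2-1, overlapped by a peak in both mutant lists and 28367 and 28368 bp from the nearest in wild type. With 3 lost genes and 1 gained gene, these shares cannot be set apart from those of all genes. Requiring only 1 list of a genotype relaxes the rule: without GAF replicate 1 or 2 of wild type 9 and 14 genes were lost and 5 and 4 gained, and without replicate 1 or 2 of the mutant 10 and 9 were lost and 2 and 7 gained.

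ZLD was kept at 7 tRNA genes (2.37%), beside 5.11% of all genes, lost at 2 (0.678%), beside 0.574%, and gained at 3 (1.02%), beside 0.832%. The lost genes were tRNA:Pro-CGG-2-3, which a ZLD peak overlapped in both wild-type lists and which lay 7454 and 7519 bp from the nearest in the mutant, and tRNA:Phe-GAA-1-7. The gained genes were tRNA:Ala-TGC-1-1, tRNA:Asp-GTC-1-11, which lies 714 bp from snRNA:U6:96Aa, and tRNA:Ser-AGA-3-2. tRNA:Ala-TGC-1-1 moved only across the limit of 500 bp, from 525 and 551 bp to 492 and 491 bp. Without ZLD replicate 1 of wild type 9 genes were lost and 5 gained, and without replicate 2 of wild type 3 were lost and 5 gained. Without replicate 2 of the mutant 3 were lost and 5 gained.

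The letters bound by GAF were not more frequent around the tRNA genes it was near. GAGAG, searched on either strand within 500 bp, was present at 206 of 295 genes (69.8%) and in 71.5% of all windows of that length, and at 33 of the 51 genes with GAF in both lists (64.7%) against 154 of the 216 with GAF in neither (71.3%). CAGGTA was present at 60 genes (20.3%) and in 21.9% of all windows. It was found at 3 of the 10 genes with ZLD in both lists, at 51 of the 266 with ZLD in neither (19.2%) and at 23 of the 58 with HIRA in both (39.7%). GAGAG overlaps itself, and a match is only a run of letters in the window.

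Other genes transcribed by Pol III were counted in the same way. The 4 U6 and U6atac snRNA genes (snRNA:U6:96Aa, snRNA:U6:96Ab, snRNA:U6:96Ac and snRNA:U6atac), whose promoter lies upstream of the gene, had Pol II-Ser5P in both lists, and HIRA in both lists at 0 of 4. Both 7SL RNA genes, which encode the RNA of the signal recognition particle, had HIRA and Pol II-Ser5P in both lists. They lie within the tRNA:Lys-TTT-2 cluster on 3R, each 164 bp from a tRNA gene (tRNA:Lys-TTT-2-1 and tRNA:Lys-TTT-2-4), so the same peaks were counted for both classes and cannot be told apart. Of the 7SK RNA genes, whose product restrains the elongation factor P-TEFb, snRNA:7SKa had both proteins and snRNA:7SKb had no peak in any list. RNaseMRP:RNA had HIRA, dPCIF1 and Pol II-Ser5P in both lists, and RNaseP:RNA, which encodes the RNA of the enzyme that trims the 5′ end of tRNA precursors, had Pol II-Ser5P alone. Among the 96 genes of the 5S rRNA array HIRA was near 42 and 16 and Pol II-Ser5P near 26 and 38. ZLD was near 26 and 50 in wild type and near 9 and 4 in the mutant, and GAF near 0 in all 4 of its lists. The 5S genes are repeated in tandem, and how many of them reads kept at single positions can reach was not tested.

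The order of the proteins at tRNA genes was not that at protein-coding genes. At the 5′ ends of 13968 protein-coding genes the mean share over the lists was 51.9% for Pol II-Ser5P, 21.0% for GAF, 20.2% for dPCIF1, 16.0% for HIRA and 8.66% for ZLD. At tRNA genes these means were 38.8%, 22.0%, 6.10%, 28.8% and 6.61%. HIRA was higher at tRNA genes than at protein-coding 5′ ends in both lists, and dPCIF1 was lower in both lists. At the 25 snRNA genes of RNA polymerase II, short and often grouped like tRNA genes, dPCIF1 was near 18 and 18, HIRA near 20 and 20 and ZLD near 19 and 18, so that all 3 were frequent. Pol II-Ser5P was near 23 and 22 of them and GAF near 5 and 4. By mean share HIRA (80%) came next after Pol II-Ser5P (90%) there, as it did at tRNA genes.

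Protein-coding genes of the Pol III pathway showed mainly Pol II-Ser5P. A gene was counted when a peak lay within 1 kb of a start site in both lists, which held for 53.1% of all protein-coding genes for Pol II-Ser5P, 22.7% for GAF, 18.9% for dPCIF1, 14% for HIRA, 8.91% for ZLD, 20.5% for GAF in the mutant and 9.69% for ZLD in the mutant. Of 14 genes of the Pol III machinery 12 had Pol II-Ser5P, 4 GAF, 1 dPCIF1, 1 ZLD and 0 HIRA. They comprise 10 polymerase subunit genes, the TFIIIB genes Brf, Bdp1 and Trf, and the repressor gene Maf1, which with the subunit gene Polr3D lacked Pol II-Ser5P in both lists. Polr3D had no group with a peak in both lists. Of 33 aminoacyl-tRNA synthetase genes, whose products charge tRNAs, 23 had Pol II-Ser5P, 5 GAF, 5 dPCIF1, 2 HIRA and 2 ZLD. GlyRS was called in 6 of the 7 groups, and GluProRS and TyrRS in 4. AlaRS-m, GluRS-m, IleRS-m, LeuRS-m, LysRS, MetRS, MetRS-m, TyrRS-m and ValRS-m were called in none. Of 8 tRNA processing genes 7 had Pol II-Ser5P, with Tsen34, a subunit gene of the tRNA splicing endonuclease, called in 5 groups and Tsen54 in none. HIRA was called at 0 of 14, 2 of 33 (6.06%) and 1 of 8 (12.5%) of these genes, numbers too small to set apart from its share of all protein-coding genes.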

How the data were processed

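The authors trimmed reads with Trimmomatic 0.39, mapped them to dm6 with Bowtie2 2.2.5, kept reads at single positions with a mapping quality of at least 30 (SAMtools 1.18) and ran MACS2 2.2.7.1 on each replicate (q-value limit 0.01). Each deposited list holds 3 columns (chromosome, start, end) and no height, so these other values (positions) were used as deposited and precision could not be set by depth. No peak ran past the end of a reference sequence, and replicate lists shared at most 7 identical peaks. Genes came from Ensembl release 115 and sequence from RefSeq dm6. The other 26 samples (inputs, and GAF in HIRA mutant and nosPmyc HIRA embryos with their wild types) were not analysed here. Calls, the position background (unweighted, or weighted by tRNA genes per arm for ratios, which moved it by at most 1.12 percentage points) and exact permutation tests were computed in Python 3.11.15 with numpy 2.4.6, after tests on simulated data. Alternatives are given in the closing section. Named genes were up to 10 called in the most lists, up to 10 over 1 kb from a protein-coding start, all gained or lost genes and clusters of 5 or more. The members and gene lists were chosen with earlier results of these data known.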

Additional observations from a re-analysis of the deposited data

Results flagged for a closer look

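The mitochondrial tRNA genes were left out of the comparisons above. All 22 of them lay within 500 bp of a peak in both Pol II-Ser5P lists and in none of the other 12 lists. The peak in each Pol II-Ser5P list spanned most of the mitochondrial genome, with widths of 15488 and 15500 bp. Its source was not tested.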

How the results depend on the processing

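The difference between the 5 proteins stayed below the threshold of 0.05 in all alternatives (distance, peak width, genes away from protein-coding starts, 1 value per cluster, each list left out): with a list left out, 94.1 to 99.4% of the variation of the percentages and 90.5 to 97.6% of that of the log2 ratios lay between proteins (exact permutation p at most 0.0138 and 0.0328). All 295 genes were unique with 100 bp to either side, so that alternative changed nothing. Levels moved with the definition of near. In the order dPCIF1, HIRA, Pol II-Ser5P, GAF, ZLD, mutant GAF, mutant ZLD, the mean share of tRNA genes was 2.54, 20.3, 30.8, 15.4, 2.203, 13.6 and 1.19% for overlap, 9.32, 32.4, 44.4, 26.3, 11.02, 21.9 and 10.3% within 1000 bp, 2.88, 16.6, 32.5, 15.1, 3.56, 15.6 and 4.07% with peaks of at least 500 bp, and 7.53, 20.5, 36.0, 23.3, 9.25, 21.6 and 9.25% for clusters. Fewer or wider windows shift these by construction, and the positions moved with them.

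The GAF difference between mutant and wild type turned from -3.39 to 0.508 percentage points with peaks of at least 500 bp, the cause of which was not tested, and ran from -4.41 to -2.37 with a list left out. The ZLD difference of 0 moved to -1.02 for overlap and to 0.935 for genes over 1 kb from a protein-coding start, and ran from -0.508 to 0.508 with a list left out. With the replicate number as a block (replicate block) the GAF difference was -3.39 (exact sign-flip permutation p = 0.5, the smallest that 2 pairs allow) and the ZLD difference 0 (p = 1, exact permutation); the labels do not say that a number marks a shared batch. The share near minus away from protein-coding starts moved, at 500 bp, to 11.4 points for dPCIF1, -10.96 for HIRA, 5.01 for GAF and -0.823 for ZLD, and, at 2 kb, to 3.80 for dPCIF1 and -10.5 for HIRA, and it changed sign at 2 kb for GAF (-0.668) and mutant GAF (-1.63), the cause of which was not tested.

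Clusters with a peak in either list numbered 11 for dPCIF1, 35 for HIRA, 13 for ZLD and 26 for mutant GAF, and at 1 kb between neighbours 3 for ZLD and 4 for mutant ZLD. Genes called in every list numbered 0 to 1, and those in none 131 to 134, with replicate 1 or 2 of all groups left out. GAF gains numbered 2 for overlap and 2 within 1000 bp, and 2 to 7 with a list left out; GAF losses 5 within 1000 bp and 9 to 14 with a list left out; ZLD gains 1 for overlap and 4 to 5 with a list left out; ZLD losses 1 for overlap, 4 within 1000 bp and 2 to 9 with a list left out.
Depth is unknown for these lists, so a tRNA gene without a peak was not detected at the depth of that list, and a difference in depth between lists cannot be told apart from one in binding.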
